A study of Homo sapiens with 4 samples.

Results

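U87MG and U251MG are established human glioblastoma cell lines that are used side by side as models of malignant astrocytic tumours. The comparison described here set the control library of U87MG against the control library of U251MG, 2 of the 4 RNA-seq libraries of the study, to describe how the lines differed without knockdown. All 4 cultures were infected with lentivirus, selected with puromycin and harvested as mixed stable populations. The control cells (genotype CTL) carried the empty pGreen vector, which the sample titles call shControl, and the knockdown cells carried shRNA against *FLI1* (shFLI1), an ETS transcription factor gene. Counts of the linear RNAs were summed by gene identifier. A minimum of 100 counts in either control library left 11215 of 46660 identifiers. The shFLI1 pair, U87MG shFLI1 against U251MG shFLI1, shares no library with the control pair and served as a second measurement of the line difference. Each group was 1 library of 1 culture, so intervals of folds within a pair are 95% Clopper-Pearson intervals that cover counting error only. The main test between samples was a quasi-likelihood fit in edgeR to all 4 libraries, with terms for line and condition, and DESeq2 was run as the other test. In both the control and shFLI1 libraries of a line stand in for replicates, with 1 residual degree of freedom. The condition term removes the average shift between control and shFLI1 libraries. The p-values therefore rest only on how far the line difference changed between the 2 pairs, with variance estimates shared across genes. They do not measure the spread between replicate cultures. Differences are given on the log2 scale as U87MG minus U251MG, and levels as CPM, that is counts scaled by TMM to a common library size.

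The libraries held between 12229780 and 28891055 counts, and the U251MG control library was deeper than the U87MG control library (18108612 against 12229780). *FLI1* stood at 9.34 CPM in the U87MG control and 2.34 CPM in the U87MG shFLI1 library, and at 12.1 and 3.71 CPM in those of U251MG. Across genes, which are not independent replicates, log2 levels of the control pair correlated with r = 0.899, against 0.960 and 0.958 between the control and shFLI1 libraries of U87MG and of U251MG. The labelled cell type was checked against marker genes. *SOX2* and *NES*, genes of neural stem cells and glioma, were present in all 4 libraries, as were the mesenchymal genes *VIM* and *CD44*. The oligodendroglial factor gene *OLIG2* was at 0 to 2 counts, and *AQP4*, the water channel gene of mature astrocytes, at 0 to 7 counts. Several markers of other cells were low as well: *PTPRC* was at 0 to 5 counts, *PECAM1* at 0 to 3, *CDH1* at 0 or 1 and *MLANA* at 0 or 1. Other endothelial markers were not all near 0. *KDR* had 109 to 410 counts, and *CDH5* had 51 and 50 in the U87MG libraries and 6 and 10 in those of U251MG. The summed FPKM (a level per transcript length, as the authors computed it) lay between 1 and 7 for the immune list, 2 and 4 for the endothelial list and 2 and 4 for the melanocyte list. It was 122 to 200 in U87MG and 429 to 533 in U251MG for the epithelial list, of which *KRT8* and *KRT18* were the members tested. Some markers went against what is usually described for these lines. Both lines are known for the loss of *MTAP*, which encodes a methionine salvage enzyme, and U251MG is known as the line rich in *GFAP*. Here *MTAP* had 1686 and 3471 counts in the control and shFLI1 libraries labelled U87MG and 2217 and 2613 in those labelled U251MG. *GFAP* was higher in the libraries labelled U87MG (634 against 20.4 CPM in the controls). Line identity could not be checked from genotypes, since no genotype was analysed here, so U87MG and U251MG stand throughout for the libraries so labelled.

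Glioblastoma cells keep parts of the programmes of astrocytes, neural progenitors and mesenchymal cells, and lines differ in which parts they keep. Intermediate filament genes such as *GFAP* and *VIM* are read as lineage markers, collagens and other matrix genes set what the cells deposit around them, and receptor and homeobox or forkhead genes record regional and developmental origin. Genes of the MAGEA group are silent in most somatic tissues and are switched on in many tumours. There, DNA methylation at CG dinucleotides near their start sites is known to bear on their activity.

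Because one of the sharpest differences between the lines was a run of such genes on the X chromosome, the stretches around the start sites of *MAGEA3*, *MAGEA12* and *MAGEA2* are shown first, together with those of a collagen gene from each side of the comparison. All 5 are RefSeq promoter windows of GRCh38.p14, from 250 bases before to 50 bases after the start site, and the capitals mark each CG dinucleotide.
MAGEA3: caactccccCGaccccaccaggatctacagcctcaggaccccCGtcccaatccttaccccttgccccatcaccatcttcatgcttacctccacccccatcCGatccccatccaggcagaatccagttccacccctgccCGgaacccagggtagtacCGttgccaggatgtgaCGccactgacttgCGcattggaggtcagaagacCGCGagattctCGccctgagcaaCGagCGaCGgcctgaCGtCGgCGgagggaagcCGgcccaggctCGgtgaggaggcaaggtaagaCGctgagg
MAGEA12: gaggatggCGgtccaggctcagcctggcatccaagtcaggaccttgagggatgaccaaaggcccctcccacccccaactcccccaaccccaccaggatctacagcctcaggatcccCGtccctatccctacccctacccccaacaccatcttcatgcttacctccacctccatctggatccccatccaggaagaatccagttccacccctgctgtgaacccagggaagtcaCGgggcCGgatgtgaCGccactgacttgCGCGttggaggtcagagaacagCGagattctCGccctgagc
MAGEA2: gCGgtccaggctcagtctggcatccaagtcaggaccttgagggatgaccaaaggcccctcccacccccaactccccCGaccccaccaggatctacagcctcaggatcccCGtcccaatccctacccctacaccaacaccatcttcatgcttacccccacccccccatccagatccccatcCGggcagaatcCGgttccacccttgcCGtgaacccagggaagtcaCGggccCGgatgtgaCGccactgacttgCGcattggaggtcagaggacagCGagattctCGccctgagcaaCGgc
COL17A1: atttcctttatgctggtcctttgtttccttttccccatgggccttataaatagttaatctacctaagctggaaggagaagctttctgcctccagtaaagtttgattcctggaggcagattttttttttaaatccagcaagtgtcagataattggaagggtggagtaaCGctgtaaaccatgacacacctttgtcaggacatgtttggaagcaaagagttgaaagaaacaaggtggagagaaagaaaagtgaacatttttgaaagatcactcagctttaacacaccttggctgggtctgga
COL5A1: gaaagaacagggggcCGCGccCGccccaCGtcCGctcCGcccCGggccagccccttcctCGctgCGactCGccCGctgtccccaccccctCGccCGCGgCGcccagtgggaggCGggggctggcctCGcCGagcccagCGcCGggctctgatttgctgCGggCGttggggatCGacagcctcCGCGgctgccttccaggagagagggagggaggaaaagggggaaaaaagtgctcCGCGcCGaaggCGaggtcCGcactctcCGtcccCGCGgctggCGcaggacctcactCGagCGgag

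The *MAGEA3* window lies at chrX:152698544-152698843 on the plus strand, *MAGEA12* at chrX:152733507-152733806 on the plus strand and *MAGEA2* at chrX:152753835-152754134 on the minus strand. The *COL17A1* window lies at chr10:104085831-104086130 on the minus strand and *COL5A1* at chr9:134641553-134641852 on the plus strand. *MAGEA3* held 19 CG dinucleotides, *MAGEA12* 9 and *MAGEA2* 13, while *COL17A1* held 1 and *COL5A1* 36. The window of *MAGEA6* was identical to that of *MAGEA3* over all 300 bases. That of *MAGEA12* shared 77.4% of 226 aligned bases with *MAGEA3*, without gaps, and that of *MAGEA2* 57.3% of 232. Without gaps, bases inserted or lost lower these values. The *MAGEA3* and *MAGEA2* windows share further runs of bases that this alignment left out of register. The letters CCGGAA, a core of ETS factor motifs read on both strands, occurred once in the *MAGEA3* window and not in those of *MAGEA12* or *MAGEA2*. They occurred in 17.6% of 27305 RefSeq windows of the same length, and a match is no evidence of binding.

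More genes were high in U251MG than in U87MG. In the control pair 65 of 11215 genes were over 4-fold higher in U87MG (0.580%) and 209 were over 4-fold higher in U251MG (1.86%). With both control libraries put at the depth of the shallower one before the count minimum, an alternative added after seeing the data, these were 65 and 158. In the shFLI1 pair the same threshold was passed by 67 genes toward U87MG (0.597%) and 199 toward U251MG (1.77%). Of the 65 genes 45 were also past 4-fold in the shFLI1 pair (0.401% of genes tested), and of the 209 genes 144 were (1.28%). Of the 274 genes together, 266 kept their direction in the shFLI1 pair and 8 did not. edgeR called 849 genes higher in U87MG (7.57%) and 1666 higher in U251MG (14.9%) at an adjusted p below 0.05. The calls rest on few libraries: leaving out any 1 of the 4, which drops the condition term, left between 39 and 62 calls toward U87MG and between 92 and 134 toward U251MG. Over all 11215 genes the median difference was −0.10 in both pairs, so a value near −0.10 marks a gene that did not stand apart from the rest. Differences of the 2 pairs correlated across genes with r = 0.817. At the threshold, *HID1* (−2.001), *CALD1* (2.010) and *ELF3* (−2.016) lay just inside, while *HS3ST3B1* (−1.9996), *LINC02732* (−1.9987) and *GXYLT2* (1.9969) lay just outside.

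**Figure D1:**
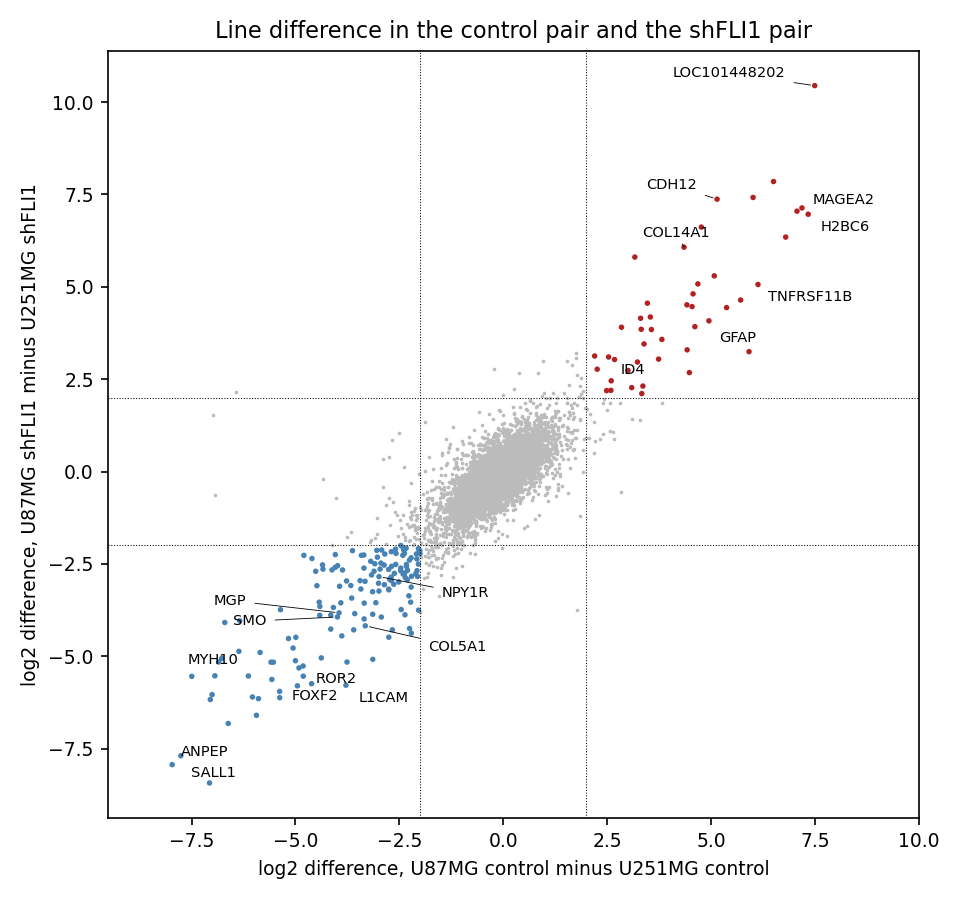
Log2 difference U87MG minus U251MG of each of 11215 genes in the control pair (horizontal) and the shFLI1 pair (vertical), with dotted lines at 4-fold. Red points are the 45 genes past 4-fold toward U87MG in both pairs and blue points the 144 toward U251MG, and most of the points past 4-fold in the control pair keep their side in the other pair.

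Some genes were at or near 0 in one line and well expressed in the other. *SALL1*, a zinc finger transcription factor gene of organ development, had no count in either U87MG library and 377 and 606 counts in the U251MG control and shFLI1 libraries. It was thus at least 80.7-fold higher in U251MG control, against a floor of 3 counts in the U87MG control library (edgeR adjusted p = 0.000301). In the opposite direction, *MAGEA2* had 163 and 305 counts in U87MG and none in either U251MG library, at least 84.6-fold higher in the control pair (edgeR adjusted p = 0.000397). At these genes the libraries of the other line held no read. Over the tested genes, 18 were at 3 counts or fewer in both U87MG libraries and 5 in both U251MG libraries. Genes high in U251MG reached the count minimum more easily, because its control library was deeper. These numbers were not taken at equal depth, so no difference between the lines is drawn from them.

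Among genes with a symbol, those with the largest differences toward U251MG in the smaller of the 2 pairs were led by *ANPEP*, which encodes the surface peptidase CD13. *ANPEP* had 1 and 0 counts in the U87MG control and shFLI1 libraries and 825 and 716 in those of U251MG, a 530-fold difference in the control pair with a counting interval from 94.8 upwards (edgeR adjusted p = 0.000142). *PLAC8*, *TCN1*, a vitamin B12 binding protein gene, *CRMP1*, a neuronal growth cone gene, *GALNT5*, *CLCN4*, *C14orf132* and the unnamed locus *LOC105378678* followed the same pattern. In U87MG these 7 genes were at 0 to 11 counts, and in U251MG at 102 to 1163. *MYH10*, which encodes non-muscle myosin IIB, stood at 0.524 and 2.47 CPM in U87MG and at 112 and 120 CPM in U251MG. Most of its reads came from 1 transcript, NM_005964, in each library. The genes toward U87MG were led by the non-coding locus *LOC101448202*, at 58.2 and 184 CPM in U87MG and 0.224 and 0.0334 CPM in U251MG. *H2BC6*, a clustered histone gene, stood at 43.1 and 28.9 CPM against 0.168 and 0.134 CPM. *LINC02167*, *MACC1-OT1*, *SH2D4A* and *SULF1*, a heparan sulfate endosulfatase gene, had 101 to 502 counts in U87MG and 0 to 6 in U251MG. The groups did not overlap for any gene of this paragraph, a property that the ranking itself favours.

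Lineage genes differed in a divided way. Of 89 listed lineage genes 84 had an analysed row and 44 were tested, of which edgeR called 7 higher in U87MG (15.9%, against 7.57% of all genes) and 12 higher in U251MG (27.3%, against 14.9%). Among the 5 tested astroglial genes, *GFAP*, *SLC1A3* and *GJA1* were higher in U87MG and *GLUL* was higher in U251MG. *GFAP*, the intermediate filament gene of astrocytes, stood at 634 and 1587 CPM in the U87MG control and shFLI1 libraries and at 20.4 and 93.8 CPM in those of U251MG. The lowest U87MG library was above the highest U251MG library, and the control pair differed 31.1-fold (95% counting interval 28.0 to 34.6, edgeR adjusted p = 0.000262). The same 2 RNAs led *GFAP* in every library, with XM_024450692 taking between 49.8% and 54.7% of its counts. *SLC1A3*, the glial glutamate transporter gene, stood at 24.0 and 20.1 CPM in U87MG and at 7.57 and 2.64 CPM in U251MG (edgeR adjusted p = 0.00504). *GLUL*, glutamine synthetase of the same glutamate cycle, was lower in U87MG, at 8.30 and 6.47 CPM against 65.3 and 40.8 CPM (7.88-fold in the control pair, interval 6.39 to 9.81, edgeR adjusted p = 0.000247). No tested astroglial gene besides *GFAP* and *GLUL* passed 4-fold in both pairs. *ALDH1L1*, below the count minimum, had 48 and 76 counts in U87MG and 5 in each U251MG library. *CLU*, the clusterin gene and the fifth tested member, was not called, and its sign differed between the pairs (−0.55 and 0.62). The remaining listed astroglial genes were below the count minimum, with *S100B* at 1 to 11 counts.

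Neural stem and progenitor genes lay toward U251MG. All 8 tested members were lower in U87MG in both pairs, with a median of −1.05 in the control pair against −0.10 over all genes, and edgeR called 5 of them (DESeq2 also 5). *NES*, which encodes nestin, stood at 199 and 283 CPM in U87MG and at 393 and 637 CPM in U251MG, a 1.97-fold difference in the control pair (edgeR adjusted p = 0.00595). *SOX2* was not called, at 117 and 158 CPM against 140 and 174 CPM (edgeR adjusted p = 0.302), and its levels overlapped between the lines. *NOTCH1*, *HES1*, a target of NOTCH signalling, *SALL2* and *POU3F2* made up the other calls. Per length, *NES* (35.1 and 73.0 FPKM in the control libraries of U87MG and U251MG) and *SOX2* (48.5 and 61.3 FPKM) lay well under *VIM* (1789 and 4058 FPKM).

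Neuronal genes were called toward U251MG by edgeR for 2 of 6 tested members, against 14.9% of all genes. *L1CAM*, an axonal adhesion molecule gene, stood at 6.64 and 0.719 CPM in U87MG and at 92.7 and 44.9 CPM in U251MG (13.97-fold in the control pair, interval 11.1 to 17.8, edgeR adjusted p = 0.00105). *NCAM1* was the other, and the neurofilament gene *NEFL* was well expressed in both lines at a difference of 0.35 (edgeR adjusted p = 0.63). The 3 tested oligodendroglial genes held 0 calls by edgeR or DESeq2 (1 at an unadjusted p below 0.05). Mesenchymal genes were expressed strongly in both lines and were split, with 4 of 22 called in each direction and a median of 0.05. Of all genes 7.57% were called toward U87MG and 14.9% toward U251MG. *VIM*, the most abundant of the genes named here, stood at 3084 and 2986 CPM in U87MG and at 6630 and 7004 CPM in U251MG (edgeR adjusted p = 0.0197). *CD44*, the hyaluronan receptor gene, stood at 1596 and 1741 CPM in U87MG and at 1044 and 1278 CPM in U251MG, a difference that was not called (edgeR adjusted p = 0.10). *FN1* differed by 0.27 in the control pair and by −0.42 in the shFLI1 pair.

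Keratin genes, which are rarely named for glial cells, were prominent and ran in opposite directions. *KRT81*, a hair keratin gene chosen after its values were seen, stood at 2604 and 1692 CPM in U87MG and at 235 and 71.8 CPM in U251MG (11.1-fold in the control pair, edgeR adjusted p = 0.000677). *KRT83* and *KRT86* moved with it, but the 3 genes are near-identical copies and reads may have been split between them. *KRT8*, a simple epithelial keratin gene, was higher in U251MG, at 460 and 362 CPM against 122 and 49.3 CPM in U87MG (edgeR adjusted p = 0.00163). Its partner gene *KRT18* was higher in U251MG as well, by 1.82-fold in the control pair (edgeR adjusted p = 0.00545). *KRT5* and *KRT14*, of the basal epithelium, were at 0 to 5 counts.

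**Figure D2:**
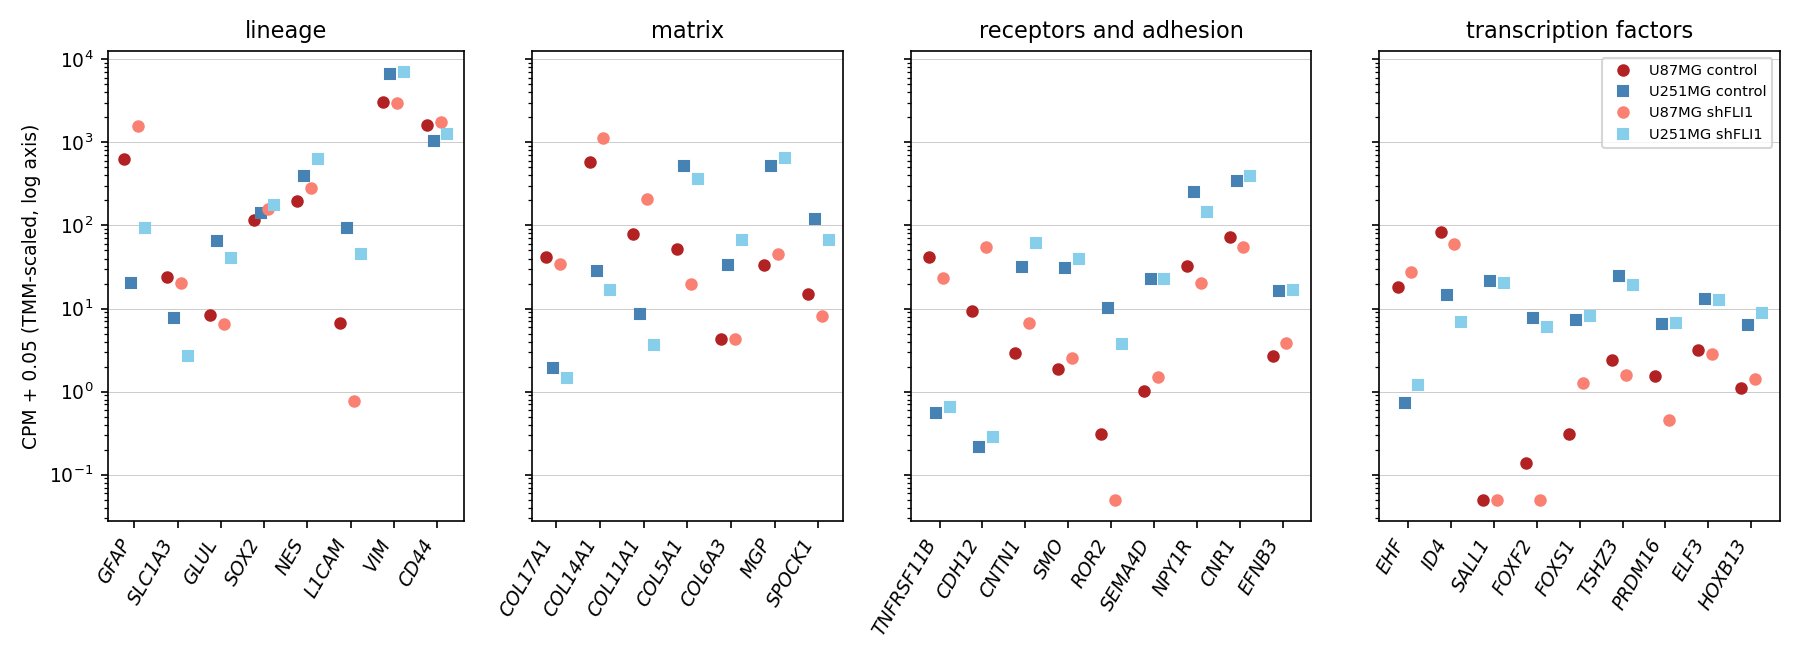
CPM plus 0.05 on a log axis of named lineage, matrix, receptor and transcription factor genes, with circles for the U87MG libraries, squares for the U251MG libraries and pale symbols for shFLI1. *GFAP* and *COL14A1* sit high in U87MG, *MGP* and *COL5A1* sit high in U251MG, and *SOX2* overlaps between the lines.

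Matrix genes separated the lines in both directions. Of 104 tested matrix genes, edgeR called 21 higher in U87MG (20.2%, against 7.57% of all genes) and 28 higher in U251MG (26.9%, against 14.9%). The collagens held the widest differences: 3 of 22 were past 4-fold toward U87MG in both pairs and 2 toward U251MG, with a median of −0.68. *COL14A1*, a fibril-associated collagen gene, stood at 573 and 1127 CPM in U87MG and at 28.0 and 16.6 CPM in U251MG (20.5-fold in the control pair, interval 18.7 to 22.5, edgeR adjusted p = 0.000764). *COL17A1*, the transmembrane collagen gene whose window held 1 CG dinucleotide, stood at 41.7 and 34.2 CPM against 1.85 and 1.40 CPM (22.5-fold, interval 15.8 to 33.1, edgeR adjusted p = 0.000142). *COL11A1*, a fibrillar collagen gene, was the third, at 78.4 and 207 CPM against 8.64 and 3.61 CPM. It differed 9.08-fold in the control pair and 57.4-fold in the shFLI1 pair. The lines did not overlap for any of the 3, a property that their choice as past 4-fold in both pairs favours.

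In the opposite direction, *COL5A1*, a fibrillar collagen gene that helps to set fibril diameter, stood at 523 and 360 CPM in U251MG and at 52.4 and 19.8 CPM in U87MG (9.99-fold in the control pair, interval 9.20 to 10.9, edgeR adjusted p = 0.000319). *COL6A3*, of the microfibrillar collagens, stood at 33.3 and 66.9 CPM in U251MG against 4.28 and 4.27 CPM. *COL1A1* and *COL18A1* passed 4-fold in the control pair (−2.72 and −2.54) but not in the shFLI1 pair (−1.44 and −1.75). *COL1A2*, which encodes the partner chain of *COL1A1*, differed by −0.68 and −1.93. Among matrix glycoproteins *MGP*, matrix Gla protein and an inhibitor of calcification, was the 1 gene past 4-fold in both pairs. It stood at 516 and 643 CPM in U251MG and at 33.3 and 45.3 CPM in U87MG (15.5-fold in the control pair, interval 13.98 to 17.2, edgeR adjusted p = 0.000142). Of the other glycoprotein genes, the fibrillin gene *FBN1* (1.57) and *IGFBP7* (1.54) were called toward U87MG, and 9 were called in that direction against 11 toward U251MG. *SPOCK1*, a testican proteoglycan gene, was higher in U251MG at 121 and 67.3 CPM against 15.02 and 8.18 CPM (edgeR adjusted p = 0.000153). Of 31 tested matrix proteases and inhibitors, 0 passed 4-fold in both pairs. edgeR called 7 toward U87MG and 6 toward U251MG, where 7.57% and 14.9% of all genes were called, and DESeq2 called 6 and 7.

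Receptor genes leaned toward U251MG, as all genes did. Of 161 tested receptor and adhesion genes, edgeR called 19 higher in U87MG (11.8%, against 7.57% of all genes) and 45 higher in U251MG (28.0%, against 14.9%), and 2 and 8 were past 4-fold in both pairs. *TNFRSF11B*, which encodes the decoy receptor osteoprotegerin, led toward U87MG at 42.2 and 23.3 CPM against 0.505 and 0.601 CPM in U251MG (83.6-fold in the control pair, interval 43.6 to 184, edgeR adjusted p = 0.000177). *CDH12*, a neuronal cadherin gene, had 107 and 1222 counts in the U87MG libraries and 3 and 7 in those of U251MG. Its ratio in the control pair was 55.5, with an interval from 18.5 to 274. In both genes every U87MG library lay far above both U251MG libraries, which their choice as past 4-fold in both pairs favours.

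Receptors of WNT and hedgehog signalling, pathways that pattern the embryonic nervous system, were unevenly distributed. *SMO*, which encodes the hedgehog signal transducer Smoothened, stood at 30.6 and 39.2 CPM in U251MG and at 1.83 and 2.47 CPM in U87MG (16.7-fold in the control pair, interval 10.8 to 27.2, edgeR adjusted p = 0.000155). *PTCH1*, its inhibitory partner gene, stood at 15.6 and 9.58 CPM in U87MG and 19.5 and 20.4 CPM in U251MG and was not called (edgeR adjusted p = 0.0665). *GLI1*, a target of the pathway, was at 6 to 19 counts in all 4 libraries. *ROR2*, a WNT5A receptor gene, had 3 and 0 counts in U87MG and 179 and 110 in U251MG (38.3-fold in the control pair, interval 12.9 to 188). *LGR5*, an R-spondin receptor gene, differed by 19.1-fold and 4.29-fold toward U251MG and *FZD4* by 6.78-fold and 1.65-fold, while *FZD6* (2.54-fold and 2.74-fold) and *FZD7* (3.02-fold and 3.08-fold) were called toward U87MG.

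Axon guidance and adhesion receptors went in both directions. edgeR called 6 of 24 axon guidance receptors toward U251MG and 3 toward U87MG, where 14.9% and 7.57% of all genes were called. DESeq2 called 4 and 3. Of 18 cadherins and adhesion receptors, edgeR called 6 toward U251MG and 3 toward U87MG, and DESeq2 6 and 5. *PLXNA2*, a plexin gene of semaphorin signalling, stood at 42.8 and 28.5 CPM in U87MG and at 11.2 and 6.18 CPM in U251MG, that is 3.83-fold higher in the control pair and 4.61-fold in the shFLI1 pair (edgeR adjusted p = 0.00069). *SEMA4D*, a semaphorin gene, stood at 22.5 and 22.7 CPM in U251MG and at 0.961 and 1.44 CPM in U87MG (23.4-fold in the control pair, edgeR adjusted p = 0.000301). *CNTN1*, which encodes the neural adhesion molecule contactin-1, stood at 31.9 and 61.1 CPM against 2.88 and 6.65 CPM (11.1-fold, edgeR adjusted p = 0.000177). *EFNB3*, an ephrin ligand gene, was higher at 16.3 and 16.7 CPM against 2.62 and 3.82 CPM. In its list of EPH receptors and ephrins, 7 of 12 members were called toward U251MG and 1, *EPHA5*, toward U87MG. Among receptors coupled to G proteins, *NPY1R*, a neuropeptide Y receptor gene, stood at 256 and 144 CPM in U251MG and 32.1 and 20.01 CPM in U87MG (7.96-fold, interval 7.16 to 8.88). *CNR1*, the cannabinoid receptor gene, stood at 340 and 392 CPM against 73.5 and 54.8 CPM. Integrin genes hardly distinguished the lines, with 1 of 14 called by edgeR and 0 past 4-fold. *EGFR*, the receptor gene most often amplified in glioblastoma, stood at 152 and 124 CPM in U87MG and at 145 and 137 CPM in U251MG (edgeR adjusted p = 0.862).

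**Figure D3:**
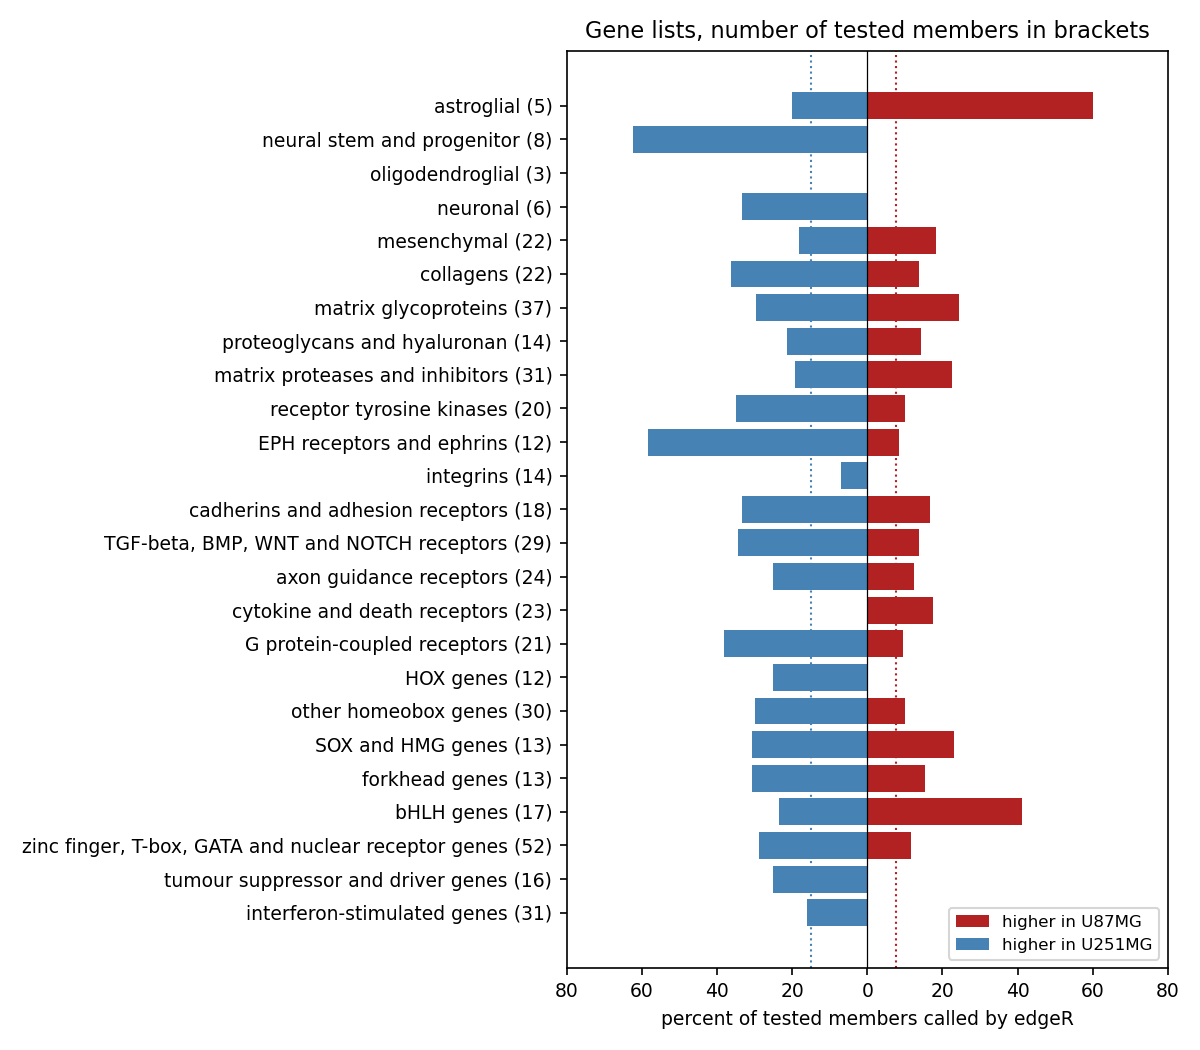
Percent of tested members of each gene list that edgeR called higher in U251MG (blue, to the left) or in U87MG (red, to the right), with the number tested in brackets. Dotted lines mark the share among all 11215 genes, 14.9% to the left and 7.57% to the right. Most lists reach past the line on each side, among them the astroglial, bHLH and matrix lists. The neural stem and progenitor, neuronal and HOX lists do so only on the U251MG side, and the cytokine and death receptor list only on the U87MG side.

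Transcription factor genes included some of the clearest differences. Of 137 tested members, edgeR called 21 higher in U87MG (15.3%, against 7.57% of all genes) and 39 higher in U251MG (28.5%, against 14.9%). Besides *SALL1*, the forkhead gene *FOXF2* had 1 and 0 counts in U87MG and 136 and 179 in U251MG (87.4-fold in the control pair, interval 15.4 to 3475, edgeR adjusted p = 0.000895). *FOXS1*, of the same family, had 3 and 27 counts in U87MG and 128 and 242 in U251MG. *TSHZ3*, a teashirt zinc finger homeobox gene, stood at 24.8 and 19.1 CPM in U251MG and 2.36 and 1.53 CPM in U87MG (10.5-fold, edgeR adjusted p = 0.000331). *PRDM16* and *ELF3*, an ETS factor gene of epithelia, were 4.31-fold and 4.14-fold higher in U251MG in the control pair.

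Toward U87MG, *EHF*, another epithelial ETS factor gene, stood at 17.9 and 27.2 CPM against 0.673 and 1.14 CPM (26.6-fold in the control pair, interval 14.9 to 52.3, edgeR adjusted p = 0.000177). *EHF* and *ELF3*, close relatives, thus ran in opposite directions. *ID4*, an inhibitor of bHLH factors, stood at 84.1 and 59.2 CPM in U87MG and at 14.4 and 6.81 CPM in U251MG (edgeR adjusted p = 0.000329). The bHLH list had more edgeR calls toward U87MG (7 of 17) than toward U251MG (4 of 17), and DESeq2 made 6 and 4. Of the 13 tested SOX and HMG genes, edgeR called 3 toward U87MG and 4 toward U251MG, but DESeq2 called 3 and 1. The hypoxia factor gene *EPAS1* was among the 7 bHLH genes called toward U87MG, at 97.4 and 49.5 CPM against 17.3 and 15.6 CPM in U251MG.

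HOX genes, which mark position along the body axis and are silent in normal forebrain, were expressed in a like pattern in both lines. Of 37 HOX genes with a row, 24 had at least 10 counts in both control libraries, 8 in neither, 4 in U251MG control only and 1 in U87MG control only. Among the 12 tested, edgeR called *HOXB3*, *HOXB13* and *HOXD11* higher in U251MG. It called 0 higher in U87MG, as did DESeq2 (0 at an unadjusted p below 0.05). *HOXB13* was the 1 tested HOX gene past 4-fold, at 6.23 and 8.75 CPM in U251MG and 1.05 and 1.35 CPM in U87MG (5.94-fold in the control pair, interval 3.27 to 11.8, edgeR adjusted p = 0.00265). *HOXD13*, below the count minimum, was the 1 HOX gene held by U87MG, with 50 and 25 counts against 0 and 1. *HOXC10* stood at 34.1 and 30.8 CPM in U87MG against 41.7 and 42.7 CPM, and *HOXD10* at 32.7 and 22.3 CPM against 28.8 and 24.1 CPM. The other 9 tested HOX genes differed by between −0.80 and 0.48 in the control pair.

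Among tumour suppressor and driver genes, no tested member passed 4-fold in the control pair. Of 21 listed genes 17 had an analysed row and 16 were tested, and edgeR called 4 of them higher in U251MG and 0 higher in U87MG, where 14.9% and 7.57% of all genes were called (DESeq2 4 and 0, edgeR at an unadjusted p below 0.05 7 and 1). *MDM4* differed by −0.99 in the control pair and −0.49 in the shFLI1 pair (edgeR adjusted p = 0.0237). *IDH2*, a mitochondrial isocitrate dehydrogenase gene, differed by −0.43 and −1.03 (edgeR adjusted p = 0.0314). *MTAP*, a neighbour of *CDKN2A* that is often lost with it in glioblastoma and is usually described as absent from both lines, stood at 147 and 156 CPM in U87MG and at 124 and 87.3 CPM in U251MG. The full-length transcript NM_002451 took between 99.1% and 99.4% of its counts. *CDKN2A*, *CDKN2B*, *CDKN2C* and *MGMT* were not analysed here. *CDKN1A*, which encodes an inhibitor of cyclin-dependent kinases, differed by −0.27 (edgeR adjusted p = 0.38). *BTG2*, an antiproliferative gene, was past 4-fold in both pairs, at 1.75 and 1.57 CPM in U87MG and 7.68 and 8.52 CPM in U251MG (edgeR adjusted p = 0.00367).

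Interferon-stimulated genes did not give a stable line difference. In the control pair 28 of 31 tested members were lower in U87MG, with a median of −0.59 against −0.10 over all genes. In the shFLI1 pair 19 of 31 were higher in U87MG and the median was 0.26. edgeR called 5 members higher in U251MG (16.1%, against 14.9% of all genes) and 0 higher in U87MG, as did DESeq2 (5 and 0, and 9 and 1 at edgeR's unadjusted p below 0.05). *IFIT1*, an antiviral effector gene, differed by −1.13 in the control pair and 0.26 in the shFLI1 pair. *ISG15*, a ubiquitin-like modifier gene that the study followed, stood at 1105 CPM in U87MG control, 925 CPM in U251MG control, 199 CPM in U87MG shFLI1 and 67.0 CPM in U251MG shFLI1. Its levels overlapped between the lines (edgeR adjusted p = 0.0793).

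The MAGEA and CSAG genes of Xq28, among them *MAGEA3*, *MAGEA12* and *MAGEA2*, whose windows are printed above, formed a block that differed between the lines, while the genes at its ends were on in both. These genes were chosen after their values were seen, except *MAGEA2* and *MAGEA2B*. At the ends, *MAGEA3* stood at 128 and 129 CPM in U87MG and at 56.4 and 46.5 CPM in U251MG, and *MAGEA6* at 205 and 209 CPM against 59.9 and 59.7 CPM. Between them, *MAGEA12* had 48 and 388 counts in U87MG and none in U251MG. *MAGEA2B* had 150 and 287 counts against none, *CSAG1* 24 and 125 against 1 and 0, *CSAG2* 27 and 92 against 4 and 0, and *CSAG3* 27 and 71 against 0 and 1. So each of the 6 inner genes was higher in both U87MG libraries than in either U251MG library, which their choice favours. Of these, *MAGEA12*, *CSAG1*, *CSAG2* and *CSAG3* were below the count minimum and were not tested. The start sites of *MAGEA12* and *CSAG1* lie 36 bases apart on opposite strands, and those of *MAGEA2* and *CSAG3* 37 bases apart. *MAGEA2* and *MAGEA2B*, *CSAG2* and *CSAG3*, and *MAGEA3* and *MAGEA6* are near-identical copies, and counts within each couple may have been split arbitrarily. *MAGED4*, a MAGE gene outside the MAGEA group, ran the opposite way. It stood at 50.8 and 45.2 CPM in U251MG and 0.961 and 1.17 CPM in U87MG (52.9-fold, interval 29.4 to 106). *MAGED1* (129 to 154 CPM) and *MAGED2* (70.0 to 93.8 CPM) were expressed in all 4 libraries. Of the 7 tested cancer-testis genes, edgeR called 3 toward U87MG and 1 toward U251MG, where 7.57% and 14.9% of all genes were called.

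**Figure D4:**
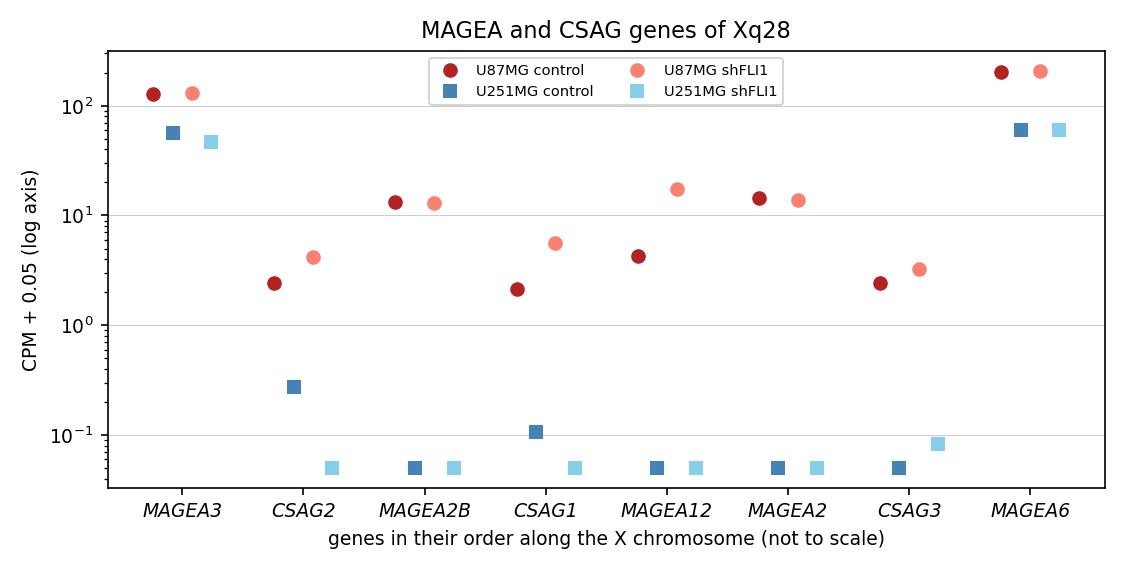
CPM plus 0.05 on a log axis of the MAGEA and CSAG genes of Xq28 in their order along the chromosome, with circles for U87MG, squares for U251MG and pale symbols for shFLI1. The 6 inner genes sit at or near 0 in U251MG, while *MAGEA3* and *MAGEA6* at the ends are expressed in both lines.

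The lines also differed by chromosome. Over protein-coding genes, the median difference in the control and shFLI1 pairs was 0.35 and 0.23 for the 369 genes of chromosome 8, the highest of any chromosome. It was −0.33 and −0.42 for chromosome 1, −0.34 and −0.34 for chromosome 10, and −0.48 and −0.22 for chromosome 17. Chromosome 8 held 10 genes over 4-fold higher in U87MG (2.71% of its genes, against 0.580% of all tested genes), among them *COL14A1*, *TNFRSF11B*, *SULF1* and *SH2D4A*. Within chromosome 1 the shift was not uniform. In the control pair the 10 Mb bins from 150 Mb onwards had medians between −0.71 and −0.38, whereas bins before 120 Mb ranged from −0.31 to 0.48. In the shFLI1 pair these ranges overlapped, at −0.68 to −0.44 and −0.50 to 0.44. Over 206 bins with at least 20 genes, the medians of the 2 pairs correlated with r = 0.856, as a description of bins that share their cell lines. Copy number was not measured here.

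**Figure D5:**
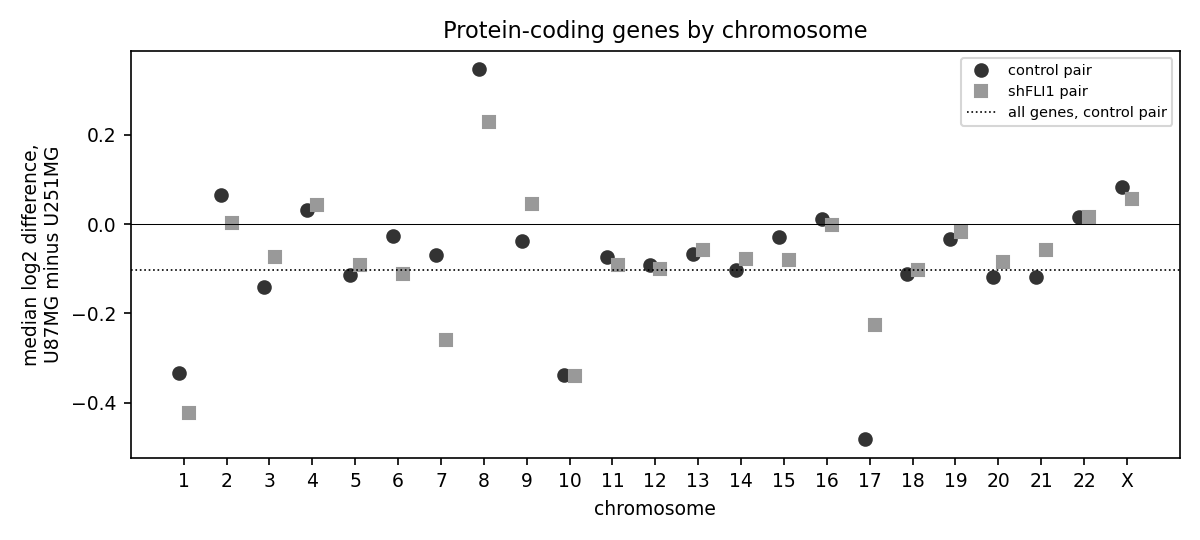
Median log2 difference U87MG minus U251MG of the tested protein-coding genes of each chromosome, as circles for the control pair and squares for the shFLI1 pair, with a dotted line at the median of all genes. Chromosome 8 lies above the others in both pairs, and chromosomes 1, 10 and 17 lie below the dotted line in both.

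CG dinucleotides around start sites were fewer among the genes toward U87MG, whereas the median of those toward U251MG was close to that of all genes. In the 300 bases around GENCODE canonical start sites, the 39 protein-coding genes past 4-fold toward U87MG in both pairs held a median of 15 CG dinucleotides (quartiles 5 and 26). The 135 toward U251MG held 29 (17.5 and 38), and all 10537 tested protein-coding genes with a start site held 28 (21 and 36). Windows with fewer than 10 CG dinucleotides made up 38.5% of the genes toward U87MG, 17.8% of those toward U251MG and 5.26% of all. *COL17A1*, with 1, and *COL5A1*, with 36, are the examples printed above.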

How the data were processed

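RNA-seq libraries of U87MG and U251MG cells, 1 control and 1 shFLI1 library each, were analysed. Per the study's methods, HISAT2 placed the reads on GRCh38 and StringTie gave FPKM. The table deposited by the authors holds these FPKM values and estimated counts that need not be whole. The tool behind the counts is not given in the sources used here. The table lists 185042 linear and 31346 circular RNAs, and 10 value columns, TPM and means over lines, were not used. Counts of linear RNAs were summed over 46660 identifiers and rounded. Of 24411 Entrez identifiers, 23775 matched a RefSeq symbol.

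Scaling was by TMM across the 4 libraries (edgeR 4.0.16 in R 4.3.3), with a prior count of 2 for log2 differences. DESeq2 1.42.0 served as the other test, and tables were made in Python 3.11.15. Named genes were the 4 largest each way per list among genes past 4-fold in both pairs, the 10 largest each way over all genes, detected HOX genes, driver genes and a few markers; other genes named were chosen after their values were seen, and some genes within this rule are not reported here. The members and lists were chosen with earlier results of these data known. Since PCR copies are counted as reads, the intervals and the floor of 3 counts cover counting error only. The tests were also run on simulated counts with a fixed dispersion and no effect of condition. That run checks the code and cannot show how far the p-values hold for the real libraries. Start sites came from GENCODE version 44 and the GRCh38 sequence. Alternatives covered scaling, filters, prior count, FPKM, thresholds, DESeq2 and single libraries.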

Additional observations from a re-analysis of the deposited data

Results flagged for a closer look

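The median difference of the interferon-stimulated genes was −0.59 in the control pair and 0.26 in the shFLI1 pair, so the sign depended on the condition. *FGFR2*, a fibroblast growth factor receptor gene, was counted 17 times in U87MG control, 159 in U251MG control, 391 in U87MG shFLI1 and 255 in U251MG shFLI1, with differences of −2.51 and 1.04. *H2AC19*, a clustered histone gene with near-identical copies, had 0 and 220 counts in the control libraries and 482 and 224 in the shFLI1 libraries, with differences of −6.98 and 1.52. These differences between conditions have 1 library per arm and were not tested. Circular RNAs, which enter no comparison above, were also counted: of 2337 with at least 100 counts in 1 control library, 1 was over 4-fold higher in U87MG in both pairs and 1 in U251MG (0.0428% each).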

How the results depend on the processing

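No paired analysis was possible because each group holds 1 library, so that the groups share fewer than 2 replicate numbers to serve as a block; the fit to all 4 libraries instead matched the lines by condition. The numbers of genes over 4-fold in the control pair (65 toward U87MG, 209 toward U251MG) and in both pairs (45 and 144) changed by 1.5 times or less with DESeq2 size factors, total counts, TMM within each pair, a prior count of 0.25, FPKM as log2(value + 0.1) or genes with a symbol only. They followed the count minimum: 304, 635, 147 and 300 at 10 counts, 662, 904, 199 and 327 at 1 count, and 9, 32, 5 and 20 at 1000 counts. They followed the fold as well: 306, 744, 156 and 470 at 2-fold, and 40, 97, 31 and 61 at 8-fold. With FPKM as log2(value + 1) they were 47, 104, 30 and 59. At equal depth of the control libraries they were 65, 158, 45 and 110. edgeR called 849 and 1666 genes (4198 at an unadjusted p below 0.05), DESeq2 642 and 1191. Without the condition term the counts were 146 and 328, with 1 count as the minimum 1589 and 2656, with 1000 counts 363 and 665, and with a fold over 4 added 64 and 190. Leaving out 1 library gave 39 to 62 and 92 to 134, where the line left with 1 library was assumed to vary like the other. Of the 102 named genes, none past 4-fold changed sign under any alternative tried. Among the others 9 of all 612 values under alternatives had the other sign, and of 276 list medians 23 did. Median differences of all genes were −0.04 with DESeq2 size factors and −0.17 with total counts. At these depths, genes under 100 counts in both control libraries were not tested, and those named above were described without a test.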
